A study of Mus musculus with 134 samples.

Results

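The proteasome is encoded in these data by 39 genes whose symbols begin with Psma, Psmb, Psmc or Psmd followed by a number, of 25209 genes in the count files of 54 bulk expression libraries. In the 2 single-cell matrices 37 of 18817 genes belonged to the family, and Psmb8 and Psmd6 were not listed there. By their known place in the complex, 14 of the 39 form the constitutive core particle (Psma1 to Psma7 and Psmb1 to Psmb7), 17 form the regulatory particle (Psmc1 to Psmc6 and 11 Psmd genes), 3 are the inducible catalytic subunits Psmb8, Psmb9 and Psmb10, 2 are tissue-restricted subunits (Psma8 of the testis and Psmb11 of the thymus) and 3 are chaperones of regulatory particle assembly (Psmd5, Psmd9 and Psmd10). Members were chosen by symbol alone.

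The proteasome degrades proteins tagged with ubiquitin. Its core particle is a barrel of stacked alpha and beta rings, with proteolytic sites on Psmb5, Psmb6 and Psmb7, and its regulatory particle recognises ubiquitin, unfolds the substrate with a ring of ATPases and feeds it into the barrel. In immune cells, or after interferon, Psmb8, Psmb9 and Psmb10 take the places of Psmb5, Psmb6 and Psmb7, which changes the peptides that are cut for antigen presentation. Embryonic stem cells are known for high proteasome activity.

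The study developed SET-seq, in which the Tn5 transposase cuts RNA/cDNA hybrids of the cytoplasmic RNA and, in the nuclei of the same cells, chromatin bound by an antibody. All libraries are labelled as E14 embryonic stem cells of strain 129/Ola, and the study names the line ES-E14TG2a. There were 27 bulk groups of 2 libraries each. Of these, 14 were in vitro groups made from total RNA, with tagmentation at 16 °C or 37 °C for 5, 10, 15 or 30 min, with Tn5 at 25, 50 or 100 ng/µl, or with 300 ng, 3 ng or 30 pg of RNA. A conventional ligation-based group served as the reference method. SET-seq groups whose labels name no antibody, called SET-seq without antibody here, used 10, 100, 1000 or 10000 untreated cells. The series also holds H3K27me3 chromatin libraries of these cell numbers, and the labels do not say whether they came from the same cells. The name used here therefore means only that the label gives no antibody. Co-assays with an H3K4me3 or H3K27me3 antibody used 100, 1000 or 10000 untreated cells. The Aebp2 groups were H3K27me3 co-assays of 2 lines, KO1 and KO2, made with CRISPR/Cas9 and different guides, each line a single clone with 2 experiments. Single cells were picked next to (proximal) or away from (distal) a bead coated with Wnt3a, as daughters of a division on the bead, in an H3K27me3 and an H3K4me3 series. The libraries of the temperature and time series are described as biologically independent and those of the KO lines as independent experiments. Where nothing says so, as for the Tn5 and RNA amounts, p-values measure only the spread between libraries, which may be technical.

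Several properties of the libraries bear on what follows. Totals without Rn45s, the ribosomal precursor RNA, ranged from 188275 to 16888686 counts with a median of 3569340, and those of the KO libraries from 935126 to 1124026. Rn45s took 1.54 to 1.96% of counts in the ligation libraries, 4.3 to 84.6% in the in vitro libraries, 12.6 to 34.2% in the SET-seq and co-assay libraries and 48.8 to 56.7% in the KO libraries. ES-E14TG2a is known to lack Hprt expression. Hprt was at 0 to 1.29 CPM (counts scaled to the library total) in the 28 in vitro libraries and at 0 to 2.14 CPM in the KO libraries, but at 66.2 to 485 CPM in the 20 SET-seq and co-assay libraries and at 181 to 184 CPM in the ligation libraries. The wild-type co-assay libraries therefore did not share the Hprt level of the KO lines. The knocked-out gene Aebp2 was at 15.7 and 15.0 CPM in KO1, at 49.7 and 30.2 CPM in KO2 and at 34.7 to 76.0 CPM in the wild-type H3K27me3 co-assays, so the KO2 values overlapped with wild type. These are RNA counts and do not measure the protein. The study examined its KO clones by Western blot and Sanger sequencing. Markers of embryonic stem cells summed to 3513 to 8329 CPM in every bulk library, those of fibroblasts to at most 49.4 CPM and those of primitive endoderm to at most 37.1 CPM. Of 6 markers of blood or immune cells, Laptm5 ranged from 0 to 356 CPM and Cd68 from 0 to 97.7 CPM, while Ptprc was at most 1.96 CPM. In such libraries fewer expressing cells and less RNA per cell cannot be told apart.

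The sequences before the start sites are shown for 4 catalytic subunits because the results that follow turn on the constitutive subunits Psmb5 and Psmb6 and on the inducible subunits. They come from RefSeq on GRCm38.p6 and run 5′ to 3′ along the gene, from 250 bases before the start site to 50 after it. The promoter table held 32 of the 39 members, without Psma8, Psmb1, Psmb2, Psmb7, Psmc3, Psmd3 and Psmd7. Capitals mark a match to TGACNNNGC, the core of the antioxidant response element, to GAAANNGAA, the core of the interferon-stimulated response element, or to TTCNNNGAA, the core of the interferon gamma activated site, on either strand. The windows are chr14:54617946-54618245 on the minus strand, chr11:70525107-70525406 on the plus strand, chr8:105938343-105938642 on the minus strand and chr17:34197945-34198244 on the plus strand, in the order of the lines.
Psmb5: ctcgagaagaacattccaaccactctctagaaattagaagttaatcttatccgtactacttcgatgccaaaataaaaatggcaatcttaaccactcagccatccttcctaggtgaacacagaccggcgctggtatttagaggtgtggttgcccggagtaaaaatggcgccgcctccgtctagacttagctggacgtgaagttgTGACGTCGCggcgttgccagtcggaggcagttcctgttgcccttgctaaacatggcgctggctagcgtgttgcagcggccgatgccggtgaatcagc
Psmb6: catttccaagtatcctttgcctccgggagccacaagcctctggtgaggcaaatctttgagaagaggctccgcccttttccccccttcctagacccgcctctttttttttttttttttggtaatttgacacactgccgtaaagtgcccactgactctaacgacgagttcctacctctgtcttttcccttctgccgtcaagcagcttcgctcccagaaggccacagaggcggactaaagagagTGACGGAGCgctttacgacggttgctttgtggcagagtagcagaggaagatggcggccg
Psmb10: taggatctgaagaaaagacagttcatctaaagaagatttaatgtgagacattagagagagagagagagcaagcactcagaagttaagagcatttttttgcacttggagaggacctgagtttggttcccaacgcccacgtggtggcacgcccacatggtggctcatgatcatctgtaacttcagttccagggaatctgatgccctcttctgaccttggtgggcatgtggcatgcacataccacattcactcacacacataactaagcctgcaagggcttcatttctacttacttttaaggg
Psmb8: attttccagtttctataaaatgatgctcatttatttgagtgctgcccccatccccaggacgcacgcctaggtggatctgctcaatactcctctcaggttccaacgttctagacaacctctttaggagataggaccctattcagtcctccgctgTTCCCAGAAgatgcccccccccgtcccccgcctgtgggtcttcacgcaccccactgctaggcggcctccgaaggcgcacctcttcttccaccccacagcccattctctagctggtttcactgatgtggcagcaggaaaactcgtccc
TGACNNNGC is a letter pattern of the kind bound by the transcription factors Nfe2l1 and Nfe2l2, and it began 47 bases before the Psmb5 start site and 9 bases before that of Psmb6. It was in 12.4% of 32851 promoter windows and in the windows of 5 of the 32 members. GAAANNGAA was in 8.56% of windows and in those of 5 of the 32 members, none of which is an inducible subunit. TTCNNNGAA, which reads the same on both strands, was in 8.3% of windows and in those of 2 of the 32 members, of which Psmb8 had it 97 bases before the start site. None of the 3 patterns was in the Psmb10 or the Psmb9 window. The patterns were searched for without counting overlaps between them, and a match is a description of letters.

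The constitutive subunits were expressed in nearly every library. Per length, as RPKM, the highest medians over the 54 libraries were those of the beta ring genes Psmb3 with 798, Psmb6 with 638 and Psmb4 with 423. Their ranges, 79.1 to 1577 for Psmb3 and 276 to 1359 for Psmb6, overlapped, so the order of these neighbours did not exceed their spread. Psmb5, which carries the chymotrypsin-like site, was lower, with a median of 113 RPKM, and Psmb7, which carries the trypsin-like site, had a median of 359 RPKM. In mm9 these catalytic genes lie at chr14:55232957-55236832 (Psmb5), chr11:70338859-70341360 (Psmb6) and chr2:38443566-38499426 (Psmb7), and counts are on their exons. The alpha ring ranged from a median of 314 RPKM for Psma6 to 17.1 RPKM for Psma3. In the regulatory particle the medians ran from 265 RPKM for the ATPase gene Psmc5 to 69.6 RPKM for the lid gene Psmd11. The assembly chaperones Psmd9 and Psmd10 had medians of 15.9 and 10.3 RPKM. Every core and regulatory gene had a count in all 54 libraries except Psmb5, which was at 0 in 1 library of 30 pg RNA and in 1 of 10 cells, where 3 counts correspond to 9.28 and 15.9 CPM.

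**Figure D1:**
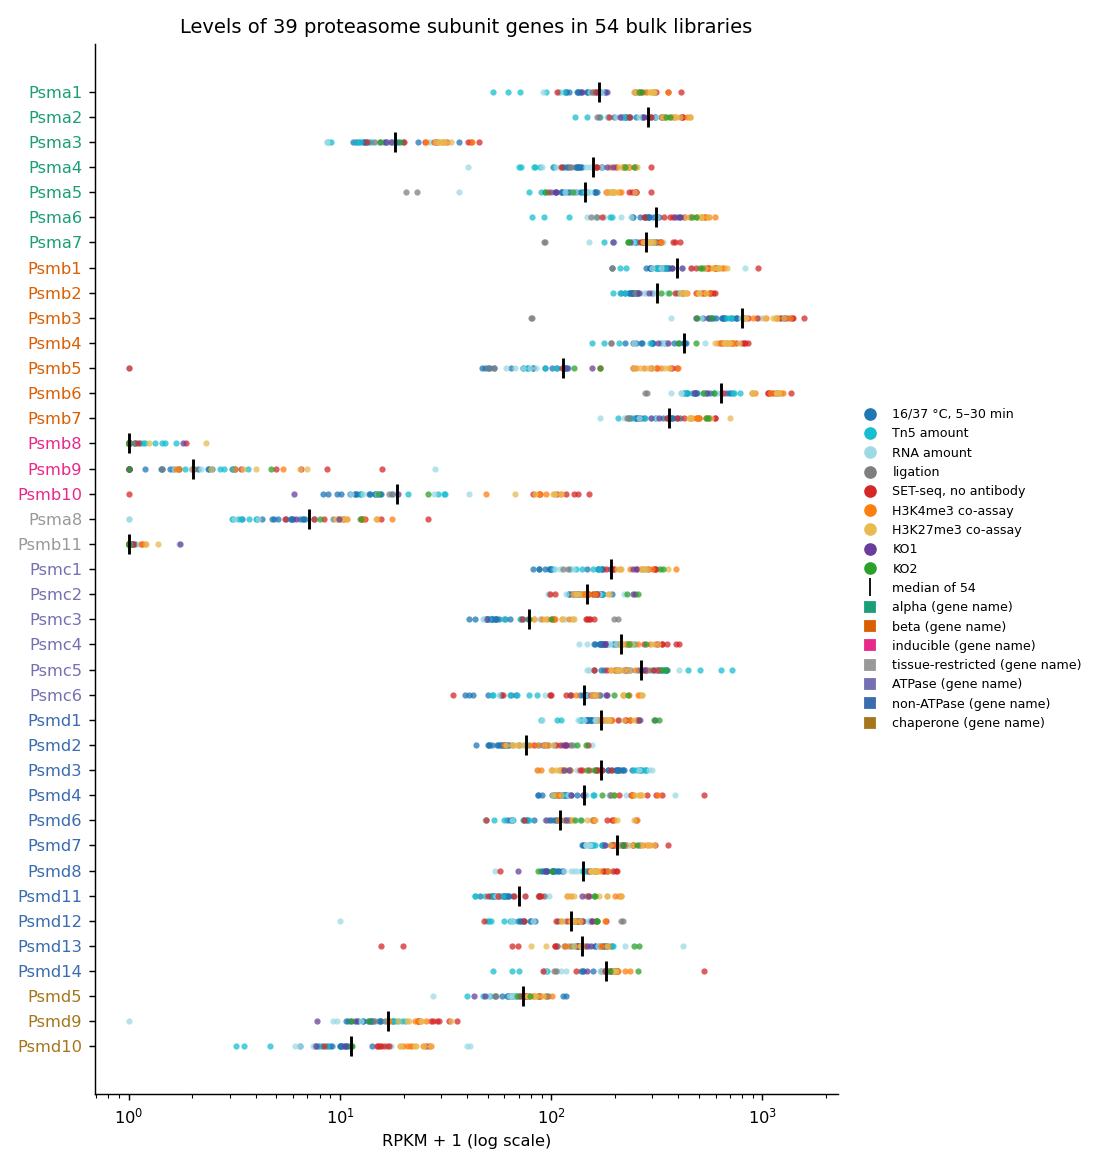
Levels of the 39 genes as RPKM + 1 on a log axis, 1 point for each of 54 bulk libraries, coloured by library kind, with a black bar at the median. Gene names are coloured by role, and Psmb3 and Psmb6 have the highest medians, 798 and 638 RPKM, while Psmb8 and Psmb11 sit at a median of 0.

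Of the inducible and tissue-restricted members, Psmb8, Psmb9, Psma8 and Psmb11 had the lowest medians of all 39 genes. Psmb8, at chr17:34335140-34338399 in mm9, had 45 counts in all 54 libraries together and was at 0 in 39 of them, which gives 0.166 CPM with an exact 95% Poisson interval of 0.121 to 0.222. Of these counts, 31 came from the 6 libraries of the Tn5 series, with 0.501 CPM in sum and an interval of 0.34 to 0.711. Psmb9, at chr17:34319044-34324275, had 470 counts in all, or 1.73 CPM with an interval of 1.58 to 1.9, and was at 0 in 12 libraries. These intervals cover counting error only. Psmb10, at chr8:108459628-108462292, was the inducible subunit with appreciable expression, with a median of 17.5 RPKM over all libraries. Psma8 had a median of 6.17 RPKM and Psmb11 a median of 0.

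The share of all counts that fell on the 39 genes separated the kinds of library. It was 0.655 to 0.930% in the 28 in vitro libraries with a median of 0.805%, 0.740 to 0.743% in the ligation libraries and 1.05 to 1.36% in the 20 SET-seq and co-assay libraries with a median of 1.26%. The KO1 libraries were at 0.884 and 0.938% and the KO2 libraries at 1.10 and 1.16%. The in vitro and the SET-seq ranges did not overlap, 1 KO1 library lay inside the in vitro range and the other just above it, and both KO2 libraries lay inside the SET-seq range.

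The balance between core and regulatory particle also went with the kind of library. Summed CPM of the 14 core genes over summed CPM of the 17 regulatory genes was 1.05 to 1.22 in the 8 libraries made at 16 °C and 0.798 to 0.884 in the 8 made at 37 °C, which do not overlap. It was 1.07 to 1.53 in the 20 SET-seq and co-assay libraries, 0.759 in both KO1 libraries, 0.776 and 0.781 in the KO2 libraries and 0.402 and 0.405 in the ligation libraries. The KO libraries are co-assays, yet their ratio lay outside the range of the wild-type co-assays, 1.14 to 1.48, and inside that of the in vitro libraries, 0.639 to 1.22. Core genes are shorter, with a median exon length of 1036 bases against 1564 bases for regulatory genes. Per length, the ratio of summed RPKM gave 1.85 to 2.15 at 16 °C, 1.31 to 1.47 at 37 °C, 1.81 to 2.73 in SET-seq and co-assays, 1.33 to 1.36 in the KO libraries and 0.694 to 0.699 in the ligation libraries. The KO ratio thus lay below the 37 °C range by CPM and inside it by RPKM, and below the SET-seq and co-assay range on both scales.

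**Figure D2:**
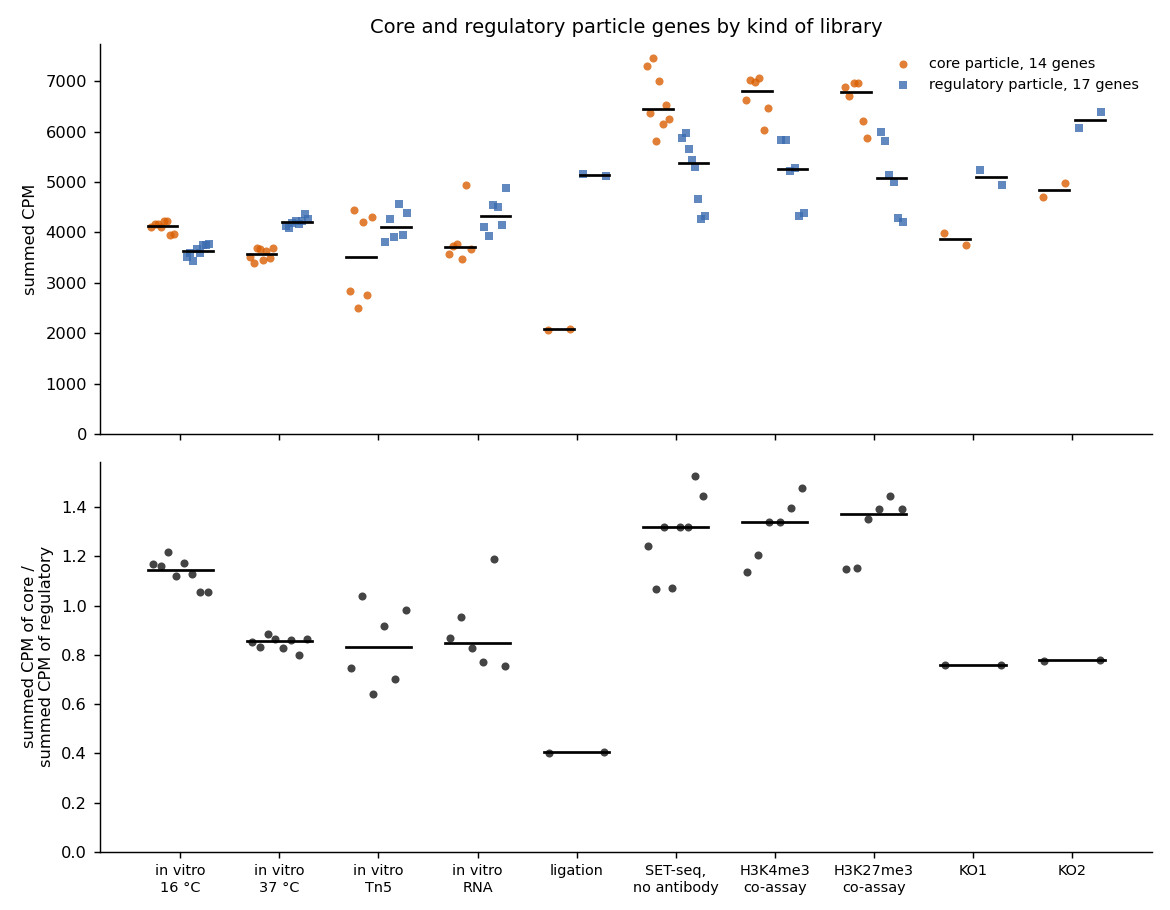
Top, summed CPM of 14 core genes (circles) and 17 regulatory genes (squares) in each bulk library by kind, with bars at the medians. Bottom, their ratio, which lies at 1.05 to 1.22 at 16 °C, at 0.798 to 0.884 at 37 °C, at 0.402 to 0.405 in ligation libraries and at 0.759 to 0.781 in the KO libraries.

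Among the catalytic subunits, Psmb10 moved with the kind of library. It ranged from 9.28 to 50.7 CPM in the 28 in vitro libraries, was 20.5 and 21.0 CPM in the ligation libraries, and ranged from 60.8 to 191 CPM in the 18 SET-seq and co-assay libraries of 100 or more cells. It was 22.6 and 6.42 CPM in KO1 and 17.9 and 32.0 CPM in KO2, so all 4 KO values lay below every wild-type co-assay value and overlapped with the in vitro range. The 2 libraries of 10 cells gave 103 CPM and 0. Per length, the inducible subunits made up 0.949 to 6.8% of catalytic RPKM (Psmb5 to Psmb10) in the in vitro libraries with a median of 1.47%, and 0 to 6.63% in SET-seq and co-assays with a median of 5.01%. In the KO libraries this share was 0.53 to 1.9%. The members whose level followed Psmb10 most closely over the 27 group means, by Pearson's r of log2(CPM + 1), were Psmb2 with 0.921, Psmb6 with 0.865, Psmb4 with 0.828 and Psmb5 with 0.81, a description of groups that share library kind and depth.

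**Figure D3:**
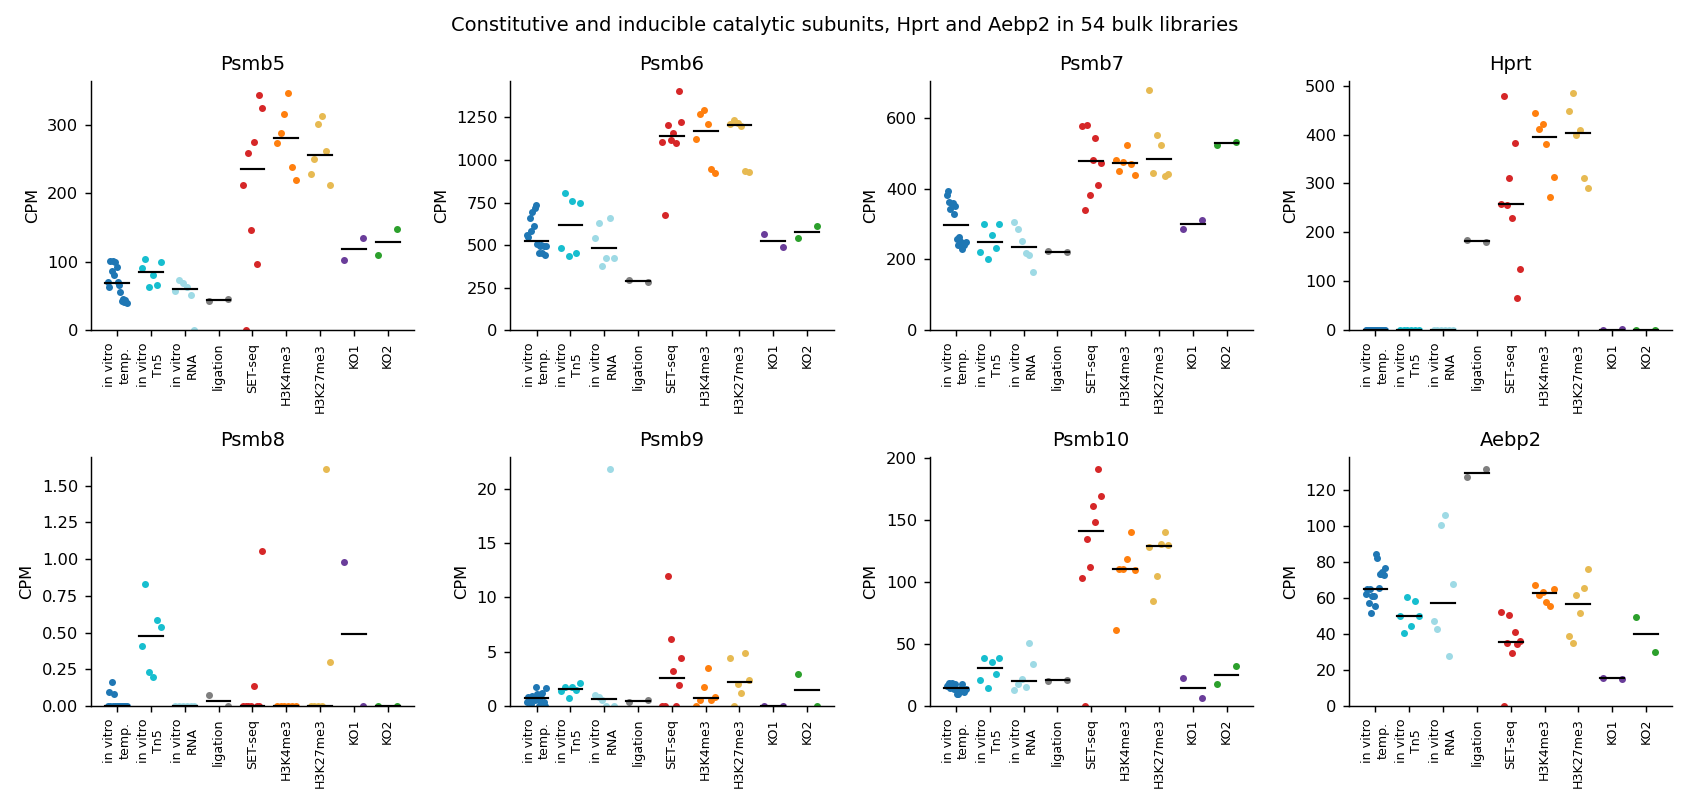
CPM of the constitutive catalytic genes Psmb5, Psmb6 and Psmb7, the inducible genes Psmb8, Psmb9 and Psmb10, and of Hprt and Aebp2 in 54 bulk libraries by kind, 1 point per library with bars at the medians. Psmb10 lies at 9.28 to 50.7 CPM in vitro and at 6.42 to 32.0 CPM in the KO libraries, and Hprt is at 0 to 2.14 CPM in these same libraries.

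Aebp2 is an accessory subunit of PRC2, the complex that writes H3K27me3, and the KO lines were compared with wild-type H3K27me3 co-assays of 10000 cells to ask which genes change with its loss. The labels give no cell number for the KO libraries, so this reference was a choice. Against it the called core particle genes were all lower in the KO lines and all but 1 of the called regulatory particle genes were higher. With all 6 H3K27me3 co-assays as wild type fewer regulatory genes were called higher, as given below. Of 36 members tested, 12 were higher and 14 lower, or 72.2%, beside 57.3% of all 9523 genes tested. None of the 14 core genes was higher and 9 were lower, among them 6 of the 7 beta ring genes, with a median log2 fold change of −0.38. Of the 17 regulatory genes 12 were higher and 1 was lower, Psmd8, with a median of 0.47. All 3 assembly chaperones were lower. The median was −0.007 over the members and −0.025 over all genes.

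Psmb10 had the largest difference of all members. Its values were 22.6 and 6.42 CPM in KO1, 17.9 and 32.0 CPM in KO2 and 140 and 129 CPM in wild type, which do not overlap, for a log2 fold change of −2.64 (SE 0.234, adjusted p 1.18e-09). Psmb5 was at 103 and 135 CPM in KO1, 110 and 148 CPM in KO2 and 261 and 212 CPM in wild type, −0.77 on the log2 scale (SE 0.142, adjusted p 6.07e-05). Psmb6, with the caspase-like site, was at 565, 488, 540 and 612 CPM in the KO libraries and at 936 and 927 CPM in wild type, −0.61 on the log2 scale (SE 0.0993, adjusted p 1.22e-05). For all 3 genes every KO library was below both wild-type libraries. Psmb7 did not pass the test over both clones, with a log2 fold change of 0.002. Psmb8 and Psmb9 did not pass the filter on low counts: Psmb8 had 1 count in KO1, 0 in KO2 and 2 and 1 in wild type, and Psmb9 0 counts in KO1, 3 in KO2 and 6 and 8 in wild type, where 3 counts correspond to 2.67 to 3.21 CPM in a KO library. Without the filter neither passed in edgeR, with an adjusted p of 0.685 for Psmb8 and 0.114 for Psmb9.

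The genes that were highest relative to wild type belong to the base and lid of the regulatory particle. Psmd2, a scaffold of the base, was at 354 and 345 CPM in KO1, 401 and 444 CPM in KO2 and 197 and 184 CPM in wild type, a log2 fold change of 1.16 (SE 0.114, adjusted p 6.24e-09). The ATPase gene Psmc2 was at 435 and 443 CPM in KO1, 406 and 459 CPM in KO2 and 234 and 225 CPM in wild type, 1.07 on the log2 scale (SE 0.112, adjusted p 1.6e-08). The lid gene Psmd13 was at 238 and 230 CPM in KO1, 384 and 406 CPM in KO2 and 146 and 200 CPM in wild type, 0.93 on the log2 scale (SE 0.128, adjusted p 1.27e-06). In all 3 genes, named for their large differences, no KO value overlapped with wild type. The chaperone genes Psmd10 (−1.16, SE 0.279) and Psmd9 (−0.80, SE 0.224) were the lowest after Psmb10, at 9.81 to 15.1 and 17.7 to 32.8 CPM in the KO libraries against 34.8 and 31.8 and against 46.1 and 52.3 CPM in wild type.

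Of genes that work with the proteasome, 15 of 16 partners (activators, core assembly factors and ubiquitin receptors) were tested, and 1 was higher and 5 were lower. The deubiquitinase gene Usp14 was 0.77 higher on the log2 scale, and the core assembly factors Psmg4 and Psmg3 fell by 1.39 and by 1.04. Of 6 tested genes of interferon response and antigen presentation none was higher and 4 were lower, led by B2m at −2.30 and H2-D1 at −2.04. The 6 listed markers of blood or immune cells summed to 42.2 and 42.8 CPM in KO1 and to 74.6 and 79.2 CPM in KO2. They summed to 148 to 269 CPM in the 6 wild-type H3K27me3 co-assays, with 2 of the 6 tested and both lower. Most of each sum was Laptm5, at 30.4 to 31.0 CPM in KO1, 63.6 to 75.6 CPM in KO2 and 129.5 to 211.7 CPM in those co-assays. Ptprc, Lyz2 and Tyrobp had medians of 0 in those co-assays and of at most 1.96 CPM in the KO lines, so the sum does not name a cell type. Of 8 embryonic stem cell markers none was higher and 3 were lower, and they summed to 3513 to 4038 CPM in the KO libraries and 5087 to 5464 CPM in those co-assays. Their part in the result was not tested.

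The direction depended on which libraries stood for wild type. With all 6 H3K27me3 co-assays 6 members were higher and 17 lower, or 63.9% beside 45.0% of all genes tested. The regulatory genes Psmc1 (0.12), Psmd12 (0.25), Psmc6 (−0.12) and Psmd11 (−0.11) were then no longer called, and Psmc3 (−0.52) was called lower. With H3K4me3 co-assays of 10000 cells 11 were higher and 15 lower, or 72.2% beside 57.0%, and with SET-seq of 10000 cells without antibody 14 and 15, or 80.6% beside 67.6%. With in vitro total RNA of the 37 °C, 5 min group, whose Hprt level matched that of the KO lines, 18 were higher and 2 lower, or 55.6% beside 48.5%, and the median member moved to 0.50 on the log2 scale. With ligation libraries 25 were higher and 2 lower, or 75% beside 68.6%, with a median of 0.64. Of the 26 members called against the H3K27me3 co-assays of 10000 cells, 12 had the opposite sign against in vitro RNA, 5 of them called, and 13 against ligation libraries, 10 of them called. Against SET-seq of 10000 cells without antibody 4 of the 26 had the opposite sign, 3 of them called. It was 4 against all 6 H3K27me3 co-assays, with 0 called, and 0 against the H3K4me3 co-assays. The Psmb10 difference against in vitro RNA was 1.02 (adjusted p 0.0826), and against ligation libraries 0.19 (adjusted p 0.527). Called higher against all 6 references were Psmc2 (0.58 to 1.19), Psmd1 (0.50 to 1.03), Psmd2 (0.32 to 1.36) and Psmd13 (0.55 to 3.41), and no member was called lower against all of them. The references share the KO libraries, and the 6 H3K27me3 co-assays include those of 10000 cells. The SET-seq libraries of 10000 cells stood apart for Psmd13, as given below. The in vitro and ligation libraries came from total RNA and the KO libraries from cytoplasmic RNA, and ligation was another library method. The loss of Aebp2 and the source of the cells cannot be told apart. Against the in vitro and ligation libraries neither can be told apart from the RNA fraction or, for ligation, the method.

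**Figure D4:**
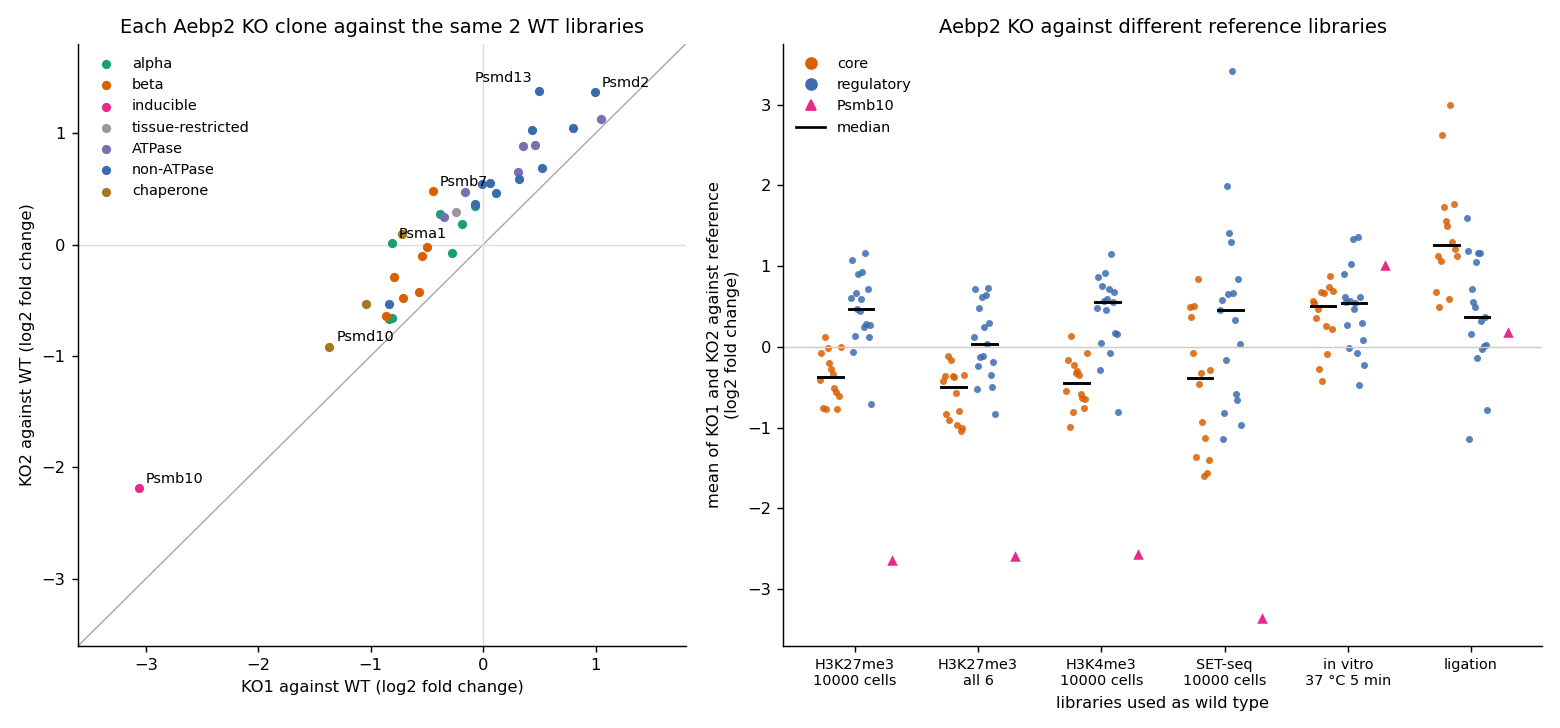
Left, log2 fold change of each tested member in KO2 against that in KO1, both against the same 2 wild-type libraries, with a line of equality. Right, log2 fold changes of core and regulatory genes (bars at medians) and of Psmb10 against 6 choices of wild-type libraries, where Psmb10 lies at −2.64 against H3K27me3 co-assays and at 1.02 (not past the test) against in vitro RNA.

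The clones differed in the amount of proteasome RNA. All 36 tested members had a lower fitted level in KO1 than in KO2, as had 4820 of all 9523 genes. The median log2 difference was −0.43 over members and −0.011 over all genes. Of the 36, 15 passed the test, all lower in KO1, or 41.7%, beside 11.8% of all 9523 genes in either direction. They comprised 7 of 14 core genes, 7 of 17 regulatory genes and Psmd5. The largest difference was that of Psmb7, at 287 and 312 CPM in KO1 and 524 and 533 CPM in KO2, −0.92 on the log2 scale (SE 0.124, adjusted p 3.42e-05). Psmd13 (−0.86, SE 0.147, adjusted p 4.99e-04) and the alpha ring gene Psma1 (−0.82, SE 0.144, adjusted p 5.9e-04) followed. Psmb10 was −0.87 (SE 0.416, adjusted p 0.183), Psmb5 −0.23 (adjusted p 0.476) and Psmb6 −0.23 (adjusted p 0.235), and for these the clones overlapped. Of the partners 1 was lower in KO1, and of the interferon list none of 6 passed. The count of members depended on KO1: without its replicate 1, 8 members passed, and without its replicate 2, 3 passed.

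Against wild type each clone on its own gave another balance. KO1 had 10 members higher and 17 lower, or 75% beside 59.7% of all genes, with a median of −0.26. KO2 had 15 higher and 8 lower, or 63.9% beside 48.7% of all genes, with a median of 0.29. In both clones 10 members were higher and 8 lower. Psmb7 was lower in KO1 (−0.45) and higher in KO2 (0.48). Only in KO1 were Psma1, Psma2, Psma7, Psmb1, Psmb2, Psmb4, Psmd5 and Psmd9 called lower, and only in KO2 were Psmc4, Psmd3, Psmd7 and Psmd14 called higher. The direct test between clones passed for Psma1, Psma2, Psmb1, Psmb2, Psmb4, Psmd5, Psmc4, Psmd3 and Psmd14 of these, and not for Psma7, Psmd7 and Psmd9. The clones share the wild-type libraries.

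The tagmentation temperature was varied to find a reaction condition, on total RNA of 1 kind. At 37 °C against 16 °C the called beta ring genes were all lower and the called ATPase genes all higher. Of 36 members tested, 12 were higher and 14 lower, or 72.2%, beside 63.4% of all 11788 genes. None of the 7 beta ring genes was higher and 5 were lower, and 4 of the 6 ATPase genes were higher and none lower. The median was −0.037 over members and −0.004 over all genes.

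The ATPase gene Psmc6 differed most. It ranged from 59.4 to 105 CPM at 16 °C with a median of 82.7 CPM and from 190 to 266 CPM at 37 °C with a median of 225 CPM (log2 fold change 1.53, SE 0.0922, adjusted p 3.25e-14). Psmc1 ranged from 121 to 148 CPM and from 220 to 288 CPM (0.96, SE 0.0546), and Psmd12, a lid gene, from 119 to 143 CPM and from 185 to 262 CPM (0.87, SE 0.06). The ranges of the 2 temperatures did not overlap in these 3 genes, which were named for their large differences. Psmb5 ranged from 63.0 to 101 CPM at 16 °C and from 40.0 to 70.3 CPM at 37 °C and was lower at 37 °C (−0.83, SE 0.119, adjusted p 6.74e-07) with a slight overlap. Psmb7 (−0.48), Psmb6 (−0.35) and Psmb4 (−0.54) were lower without overlap, at 328 to 393 against 229 to 265 CPM for Psmb7. Psma3 (−0.51) and Psmb10 (−0.31, adjusted p 0.0308) were lower with overlap, the latter at 13.6 to 18.6 against 9.28 to 17.4 CPM. Of the proteasome partners 8 of 15 tested were higher and 2 lower, and of the interferon list none of 8 was higher and 3 were lower. Rn45s took 11.8 to 25.1% of counts at 16 °C and 33 to 40.7% at 37 °C, and the part of this in the result was not tested. In the 5 min libraries alone 13 members passed, and Psmb5 was then at 0.12.

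Reaction time had a smaller effect. At 30 min against 5 min, 2 of 36 members were higher and 3 lower, or 13.9%, beside 7.49% of all 11788 genes. The ATPase gene Psmc5 was at 203, 219, 409 and 390 CPM after 5 min and at 300, 327, 437 and 448 CPM after 30 min, with the 16 °C libraries first (log2 fold change 0.43, SE 0.0882, adjusted p 0.00442). The lid gene Psmd3 was at 398, 398, 433 and 373 CPM after 5 min and at 560, 568.0, 439 and 433 CPM after 30 min (0.38, SE 0.0876, adjusted p 0.0085). Psma3 was at 85.1, 65.7, 25.3 and 37.1 CPM and then at 29.2, 26, 29.6 and 28.3 CPM (−0.89, SE 0.182, adjusted p 0.00415). In Psma3 the difference lay in the 16 °C libraries, in Psmd3 mostly there, and in Psmc5 it was larger there than at 37 °C. Psma6 (−0.32, adjusted p 0.048) and Psmd5 (−0.33, adjusted p 0.0459) were lower near the threshold, and Psmb5 (0.21), Psmb6 (0.26), Psmb7 (−0.053) and Psmb10 (0.085) did not pass. Within 37 °C none passed, and within 16 °C 12 did. Without either 16 °C, 5 min library, or without replicate 1 at 16 °C and 30 min, 2 passed, and without replicate 2 at 37 °C and 5 min or replicate 1 at 37 °C and 30 min, 9 passed. Without either 10 min library of a temperature, either 37 °C, 15 min library or replicate 2 at 16 °C and 30 min, 3 passed. Of the partners 2 were higher and 1 lower, and of the interferon list none passed.

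No member passed the test for the amount of Tn5. At 100 against 25 ng/µl none of 37 members and none of 13177 genes passed in edgeR (0.0%), with 84 genes and no member at an unadjusted p below 0.05, and DESeq2 called no member either. The replicates differed instead: members summed to 6821, 6551 and 6871 CPM in the libraries numbered 1 of the 3 amounts and to 8950, 9007 and 8949 CPM in those numbered 2. Log2 differences between the amounts were −0.17 for Psmb5 (SE 0.318), −0.061 for Psmb6 (SE 0.479), 0.069 for Psmb7 (SE 0.331), 0.33 for Psmb9 (SE 0.56) and 0.14 for Psmb10 (SE 0.566). This fit did not pair the libraries by number, so these SEs also hold the difference between the numbers.

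Lower RNA input was tested down to 30 pg. At 3 ng against 300 ng none of 36 members and none of 10753 genes passed in edgeR (0.0%), although 1558 genes and 9 members had an unadjusted p below 0.05 and DESeq2 called 7 members. This rested on the 30 pg libraries, which share the fit: without either of them 23 members passed. Psmb5 was −0.092 (SE 1.28), Psmb6 −0.65 (SE 0.301), Psmb7 −0.42 (SE 0.249) and Psmb10 0.16 (SE 0.63).

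At 30 pg against 300 ng, 3 members were higher and 4 lower, or 19.4% of 36, beside 22.7% of all genes, where the median gene was at −0.44 and the median member at −0.11. Psma1 rose from 136 and 114 CPM to 386 and 309 CPM (log2 fold change 1.23, SE 0.258, adjusted p 0.027), with 218 and 191 CPM at 3 ng. The ATPase gene Psmc3 rose from 76.0 and 76.8 CPM to 188 and 204 CPM (1.10, SE 0.219), with 142 and 143 CPM at 3 ng. Psmd2 rose from 195 and 204 CPM to 473 and 390 CPM (0.87, SE 0.215). Psmc5 fell from 510 and 406 CPM to 188 and 192 CPM (−1.53, SE 0.199) and Psmc2 from 396 and 300 CPM to 171 and 173 CPM (−1.27, SE 0.24). In all 5 genes the 3 ng values lay between those of the other amounts. A call for Psma8 came from counts of 0 in both 30 pg libraries, where 3 counts correspond to 1.09 and 9.28 CPM against 5.26 and 3.62 CPM at 300 ng, so no fold is given. Psmb5 was at 52.1 CPM and 0 at 30 pg and did not pass, nor did Psmb6 (−0.34), Psmb7 (−0.88, adjusted p 0.0676) or Psmb10 (1.22, adjusted p 0.271). These calls depended on single libraries, with 0 members without either 300 ng or either 3 ng library, 22 without the 30 pg replicate 1 and 23 without the 30 pg replicate 2.

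In vitro tagmentation at 37 °C for 5 min was set against ligation-based RNA-seq, the conventional method. Core particle genes were higher by tagmentation and regulatory genes were divided. Of 36 members, 19 were higher and 8 lower, or 75%, beside 58.1% of all 12282 genes, with a median of 0.32 over members and −0.13 over all genes. Of the 14 core genes 12 were higher and none lower, including all 7 beta ring genes, and of the 17 regulatory genes 6 were higher and 7 lower. Psmb3 was at 417 and 407 CPM by tagmentation and at 57.8 and 58.8 CPM by ligation (log2 fold change 3.06, SE 0.0932, adjusted p 2.35e-15), Psma5 at 148 and 170 against 23.8 and 27 CPM (2.88, SE 0.144) and Psma7 at 440 and 520 against 147 and 146 CPM (1.94, SE 0.0946). Psmc3 was at 102 and 65.0 CPM against 335 and 322 CPM (−1.71, SE 0.147), and Psmd2 at 172 and 131 against 380 and 371 CPM (−1.06, SE 0.123). No group overlapped in these 5 genes, which were named for their large differences. Psmb6 (0.97), Psmb5 (0.86) and Psmb7 (0.40) were higher and Psmb10, at 9.89 and 9.28 against 20.5 and 21.0 CPM, was lower (−0.87, SE 0.337, adjusted p 0.0331). Hprt differed between these libraries as well, and the method and the source of the RNA cannot be told apart. Of the partners 9 of 15 were higher and 4 lower, and of the interferon list 3 of 8 and 1. Without either ligation library 16 members passed.

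SET-seq of 10000 cells reads cytoplasmic RNA, and it was set against total RNA in the same tagmentation condition. The whole beta ring and Psmb10 were higher in SET-seq. Hprt was at 66.2 to 485 CPM in SET-seq and co-assays and at 0 to 1.29 CPM in vitro, so the RNA fraction and the source of the cells cannot be told apart. Of 36 members, 15 were higher and 5 lower, or 55.6%, beside 49.8% of all 10844 genes, with a median of 0.36 over members and 0.009 over all genes. All 7 beta ring genes were higher with a median of 1.43, against 1 of the 7 alpha ring genes, and the regulatory particle had 5 higher and 5 lower. Of the proteasome partners 5 of 15 tested were higher and 4 lower, and of the interferon list 3 of 8 and 1. Of the 6 listed blood or immune markers 2 were tested and both were higher as well, and their part in the result was not tested. Without replicate 2 of the in vitro group 12 members passed.

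Psmb10 was at 191 and 169 CPM in SET-seq and at 9.89 and 9.28 CPM in total RNA, a log2 fold change of 4.31 (SE 0.282, adjusted p 1.01e-05). Psmb5 was at 343 and 324 against 70.3 and 66.3 CPM (2.37, SE 0.203), Psmb4 at 777 and 678 against 231 and 212 CPM (1.8, SE 0.199), Psmb6 at 1408 and 1225 against 507 and 453 CPM (1.54, SE 0.2) and Psmb7 at 409 and 473 against 257 and 241 CPM (0.90, SE 0.18). Both SET-seq libraries were above both in vitro libraries in these 5 genes. Psmb9 was at 1.94 and 4.44 against 1.10 and 0 CPM and was not tested. The lid gene Psmd13 was lowest, at 22.9 and 29.4 against 218 and 206 CPM (−2.94, SE 0.203), followed by Psmc6 (−1.49, SE 0.25) and Psmd12 (−0.91, SE 0.225). In SET-seq of fewer cells Psmd13 was at 100 and 107 CPM with 1000 cells, at 161 and 207 CPM with 100 and at 161 and 271 CPM with 10, so the 10000-cell libraries stood apart for this gene.

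No proteasome gene passed the test between the antibodies. Between the H3K27me3 and H3K4me3 co-assays none of 37 members and none of 11616 genes passed in edgeR (0.0%), with 361 genes and 1 member at an unadjusted p below 0.05, and DESeq2 called no member. The members' median difference was −0.032, with −0.13 for Psmb5 (SE 0.0702), −0.025 for Psmb6 (SE 0.046), 0.095 for Psmb7 (SE 0.084), 0.14 for Psmb10 (SE 0.139) and 1.3 for the sparse Psmb9 (SE 1.06).

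The co-assays differed from SET-seq without antibody at the same cell numbers, mostly in the regulatory particle. By the study's methods the RNA was removed before an antibody was added to the nuclei. The labels do not say whether the nuclei of the groups called without antibody also received one, or what else differed between these preparations. The part of this was not tested. Of 37 members, 6 were higher and 12 lower in the co-assays, or 48.6%, beside 40.6% of all 11709 genes, with a median of −0.062 over members and −0.029 over all genes. The lid gene Psmd11 was at 205 to 371 CPM in the 12 co-assays with a median of 304 CPM and at 85.9 to 153 CPM without antibody with a median of 121 CPM (log2 fold change 1.17, SE 0.105, adjusted p 1.54e-08), without overlap. Psmc6 was at 203 to 420 against 51.9 to 240 CPM (1.15, SE 0.128) and Psmd13 at 124 to 287 against 22.9 to 207 CPM (1.14, SE 0.264), with overlap. Psmd3 was at 181 to 261 against 293 to 409 CPM (−0.69, SE 0.0981) without overlap, and Psmc4 (−0.64) and Psmc3 (−0.62) were lower as well. Psmb10 was at 60.8 to 140 CPM, with a median of 115 CPM, against 112 to 191 CPM with a median of 155 CPM (−0.55, SE 0.127, adjusted p 0.00121). Psmb5 (−0.036), Psmb6 (−0.23), Psmb7 (−0.062) and Psmb9 (−1.72, SE 0.732) did not pass. Of the partners 3 of 15 were higher and 6 lower, and of the interferon list 2 of 8 and 1. Rn45s took 15.2 to 34.2% of counts in the co-assays and 12.6 to 22.0% without antibody, and its part was not tested.

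In single cells next to or away from the Wnt3a bead the family was detected gene by gene. Of 752 cells 545 passed the filter on detected genes, 335 in the H3K27me3 and 210 in the H3K4me3 series. Cells of different experiments share well barcodes, with 96 barcodes for 384 H3K27me3 cells and 80 for 368 H3K4me3 cells, and values are read counts without molecular identifiers. The share of cells with a read ranged over the 37 genes from 0.597 to 65.7% in the H3K27me3 series with a median of 24.5%, and from 0.476 to 86.7% in the H3K4me3 series with a median of 49.0%. Psmb6 was detected in 46.9% and 86.7% of cells, Psmb5 in 28.1% and 62.4%, Psmb7 in 63.3% and 71.9%, Psmb10 in 14% and 40.5% and Psmb9 in 2.99% and 0.476% of the H3K27me3 and H3K4me3 cells. The H3K27me3 experiments stood apart from each other: Psmb6 was in 11.3%, 4.26% and 14.3% of cells of experiments 8, 9 and 10 and in 50 to 93.3% in the other 7, and Psmb5 in 1.61%, 2.13% and 3.57% and in 45.2 to 64.3%. Psmb7 did not separate in this way, with 41.9%, 40.4% and 78.6% of cells of experiments 8, 9 and 10 and 53.3 to 100% in the other 7. Those 3 experiments held 62, 47 and 56 of the 335 cells, with medians of 3, 4 and 4 members and of 2452, 2267 and 1826 genes detected. The other 7 had medians of 11 to 20 members and 1505 to 4745 genes. They were singled out after their values were seen.

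Proximal and distal cells were compared over sums of 14 experiments, 9 H3K27me3 and 5 H3K4me3, with 533 cells. None of 35 members tested and none of 13086 genes passed in edgeR (0.0%), with 1194 genes and 2 members at an unadjusted p below 0.05, and limma on mean log2(CPM + 1) called no member. The fitted difference was above 0 for 26 of the 35 members, beside 54.1% of all genes, with a median of 0.50 beside 0.11 over all genes. The members were read in the same cells, so their signs are not independent. It was 0.97 for Psmb7 (SE 0.603), 0.65 for Psmb6 (SE 0.51), 0.24 for Psmb10 (SE 1.12) and −0.23 for Psmb5 (SE 0.766). In the interaction test, which asks whether this difference differs between the antibody series, none of 35 members and none of 13086 genes passed in edgeR (0.0%), with 790 genes and 1 member at an unadjusted p below 0.05, and limma called no member.

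Summed member CPM was higher in proximal cells in 12 of the 14 experiments. The largest gap was that of H3K27me3 experiment 8, with 13650 CPM in proximal and 2676 CPM in distal cells, and the reverse order was seen in H3K27me3 experiment 6, with 2455 and 3669 CPM, and in H3K4me3 experiment 3, with 2295 and 2427 CPM. These sums could rest on few cells. In the distal cells of H3K27me3 experiment 8 a single cell gave 90.4% of member reads and Psmb1 90.2%, and in experiment 9 single cells gave 87.4% in the proximal sum, led by Psmc2, and 92.4% in the distal sum, led by Psmd14. Without the leading cell of each sum, the proximal value was higher in 13 of 14 experiments, and by the median cell in 12. In H3K27me3 experiment 8 the median cell was lower in proximal than in distal cells, with 188 and 222 CPM. These are descriptions of the same cells.

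**Figure D5:**
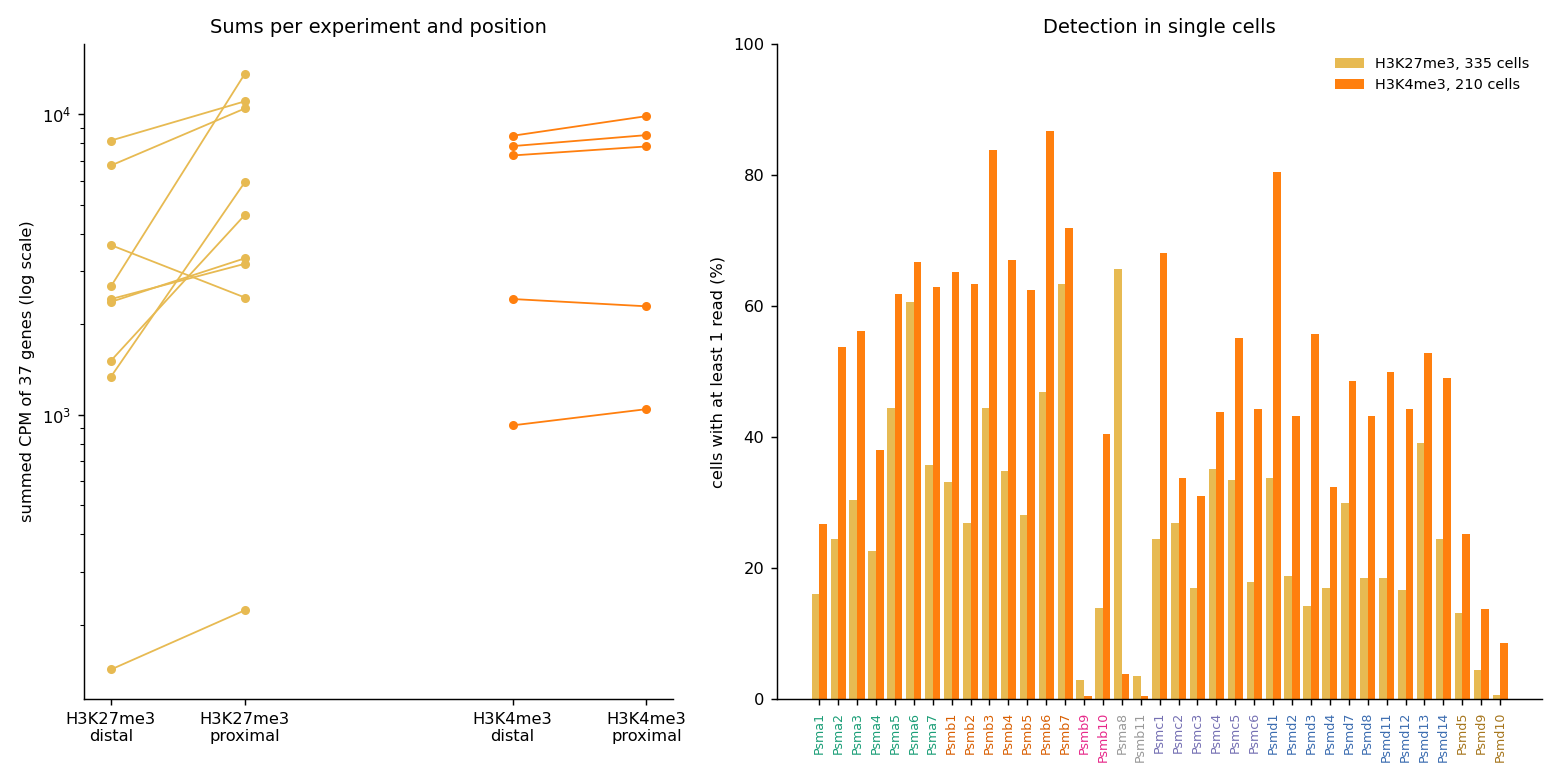
Left, summed CPM of 37 members in proximal and distal cells of each experiment on a log axis, with a line joining the 2 sums of 1 experiment, higher in proximal cells in 12 of 14. Right, share of cells with at least 1 read for each member in 335 H3K27me3 and 210 H3K4me3 cells, with gene names coloured by role, where Psma8 stands at 65.7% and 3.81%.

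The study sorted the cells into the clusters Mix, Proxi and Dista from the same expression values, so the following is a description. In the H3K27me3 series a cell had a median of 5 members detected in Mix (208 cells), 15 in Proxi (58 cells) and 15 in Dista (69 cells), with a median of 2327, 2522 and 2083 genes detected and of 228060, 167167 and 26855 reads. Of the 208 Mix cells 56, 43 and 54 came from experiments 8, 9 and 10, so cluster and experiment go together. In the H3K4me3 series it was 14 in Mix (83 cells), 18 in Proxi (75 cells) and 20 in Dista (52 cells), with 1934, 2246 and 2343 genes. Psmb10 was detected in 5.77%, 32.8% and 23.2% of Mix, Proxi and Dista cells of the H3K27me3 series and in 27.7%, 48.0% and 50.0% of those of the H3K4me3 series.

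Psma8, the testis alpha subunit, was with Psmb9 and Psmb11 one of 3 members detected in a larger share of H3K27me3 than of H3K4me3 cells. It was detected in 65.7% of the H3K27me3 cells, the highest share of the 37 genes in that series, and in 3.81% of the H3K4me3 cells. By experiment it was in all cells of H3K27me3 experiments 1, 6 and 8, which had 7, 45 and 62 cells, in 95.7% and 96.4% of those of experiments 9 and 10, and in 0 of 42 and 2.56% of 39 cells of experiments 5 and 7. In the H3K4me3 series no experiment exceeded 9.09%. Other members varied by H3K27me3 experiment too. Psmd13 was in all cells of experiments 2 and 6 and in 40.5% and 38.5% of those of experiments 5 and 7. Psma6 was in 91.5% of cells of experiment 9 and in 9.68% of those of experiment 8. Single-cell counts include introns, while the bulk counts, in which Psma8 was at 14.6 and 15.3 CPM in the H3K27me3 co-assays of 10000 cells, are on exons.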

How the data were processed

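Expression was measured in 54 bulk libraries and 752 single cells of mouse embryonic stem cells. For the bulk libraries, per the file headers and the study's methods, the authors trimmed reads with Trim Galore 0.6.4, aligned them with STAR 2.5.4b to mm9 and counted reads on exons with featureCounts 2.0.0 or, for the KO files, 2.0.1. Reads that map to several places were not counted, so members with near-identical copies are uncertain. The deposited values are raw counts per gene, and those of single cells are raw read counts on exons and introns by zUMIs, without molecular identifiers.

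CPM and RPKM were calculated from the counts and the exon lengths in the files, after Rn45s was removed from the totals. Samples were grouped by their labels. Each comparison was fitted over all genes in edgeR 4.0.16 with R 4.3.3 (TMM, its filter on low counts, the quasi-likelihood test), with p-values adjusted by Benjamini-Hochberg over all genes and called below 0.05. Single cells with more than 1000 and fewer than 5000 genes were summed per experiment and position, at least 3 cells to a sum, with the experiment as a block. Position and cluster are those of the study's list of cells. As alternatives served DESeq2 1.42.0, edgeR with the size factors of DESeq2, limma 3.58.1, no filter, a replicate block, other wild-type libraries, and each library left out. Scripts were tested on simulated data.

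Residuals of libraries with the same number correlated at 0.626 to 0.738 between the 3 Tn5 amounts, so these numbers, taken from the labels, pair the libraries. With a replicate block no member passed there either. Named in every comparison are Psmb5 to Psmb10, up to 3 called members with the largest and 3 with the smallest fold change, and members whose call differs between clones. Genes named in the descriptions of levels, Psmd1 among the wild-type references, Psma8 and the leading genes of single-cell sums were named after their values were seen. The members and lists were chosen with earlier results of these data known. Counting limits precision for Psmb8, Psmb9 and Psmb11. Intervals cover counting error only. Genomic libraries were not analysed here, and the results of 1 gene list are not reported here.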

Additional observations from a re-analysis of the deposited data

Results flagged for a closer look

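Of the members, 15 differed between the Aebp2 lines KO1 and KO2 in the direct test of the difference, each lower in KO1. On the log2 scale the differences in the core particle were −0.816 for Psma1, −0.651 for Psma2, −0.368 for Psma6, −0.475 for Psmb1, −0.43 for Psmb2, −0.492 for Psmb4 and −0.923 for Psmb7. In the regulatory particle they were −0.526 for Psmc1, −0.628 for Psmc4, −0.427 for Psmc5, −0.489 for Psmd3, −0.595 for Psmd4, −0.856 for Psmd13 and −0.555 for Psmd14, and the chaperone Psmd5 was at −0.81. Of all 9523 genes 560 were higher and 561 lower in KO1. Rn45s took 52.4 to 56.7% of counts in KO1 and 48.8 to 51.8% in KO2. Its part in the difference was not tested, and each line is 1 clone.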

How the results depend on the processing

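The number of members called stayed within 1.5 times under the other alternatives, with these exceptions. With an unadjusted p below 0.05 and an absolute log2 fold change above 1, 4 members passed in KO against wild type. At 37 °C against 16 °C 13 passed in the 5 min libraries alone. At 30 min against 5 min 8 passed by DESeq2, 0 within 37 °C and 12 within 16 °C. At 3 ng RNA 7 passed by DESeq2. With the replicate number as a block 0 passed at 30 pg RNA, and the block moved no other count by over 1.5 times, although the numbers pair the libraries only in the Tn5 series. Elsewhere most correlations of same-numbered libraries were near 0 (−0.0529 to 0.31 in the temperature series). For KO against wild type the block gave 24 members.

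Leaving out 1 library gave 20 to 26 members for KO against wild type, 3 to 22 for KO1 against KO2, 22 to 27 for temperature, 2 to 9 for time, 0 to 23 for 3 ng and 0 to 23 for 30 pg RNA, 16 to 26 against ligation, 12 to 22 for SET-seq against in vitro RNA and 13 to 20 for the co-assays, and 0 for Tn5, the antibodies and both single-cell tests. Where this left 1 library in a group, it was assumed to vary like the others.

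Among the members named for KO against wild type, directions reversed with in vitro RNA as wild type for Psmb5 (0.881), Psmb6 (0.22), Psmb10 (1.018) and Psmd10 (0.33), and with ligation libraries, a choice made after seeing the data, for Psmb5 (1.769), Psmb6 (1.216) and Psmb10 (0.188). Psmb5 reversed at 37 °C in the 5 min libraries alone (0.12), and Psma6 (0.061) and Psmd5 (0.077) reversed for time within 37 °C. The causes were not tested. Leaving out single-cell experiments was also added after seeing the data. Depth limits Psmb8, Psmb9 and Psmb11, and 2 libraries in a group limit every bulk test.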
